A study of Mus musculus with 4 samples.

Results

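A set of 8 genes (Hapln1, Vcan, Has2, Has3, Cd44, Hmmr, Edil3 and Hyal2) was followed through chromatin accessibility data from differentiating mouse embryonic stem cells. They belong to the hyaluronan matrix, its receptors and its enzymes, except Edil3, an integrin ligand gene next to Hapln1. Overlapping ATAC-seq peaks of 4 libraries were merged into 40910 union regions, and each region was assigned to the protein-coding gene with the nearest transcript start within 100 kb (GENCODE vM21, mm10). By this rule 32 of the 40910 regions belonged to 7 of the 8 genes, and Hmmr had none. The genes were selected on the peak calls themselves, for the regions at Hapln1 and Cd44 that had peaks at d4 and none at d2, so the counts of opened regions below are descriptions and carry no test.

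All libraries came from the unmodified line ES-E14TG2a, which consists of mESCs (mouse embryonic stem cells) grown without feeders and here differentiated in serum-free medium toward the cardiac and endothelial lineages. Day 4 (d4) cells had been dissociated and re-aggregated with Activin A, BMP4 and VEGF, whereas day 2 (d2) cells were collected before these factors were added. There were 2 libraries at d4 and 2 at d2, from independent differentiation experiments of the same line, and paired values below give replicate 1 first. Time in culture, re-aggregation and the 3 factors changed together and cannot be told apart. In ATAC-seq a transposase cuts open DNA, and a peak marks a place where fragments pile up above the local background. Peaks were called in each library on its own at a q-value of 0.001.

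Hyaluronan is a very long sugar chain that is made at the plasma membrane by hyaluronan synthases and extruded into the extracellular space. There it binds the proteoglycan versican, and link proteins such as Hapln1 lock the pair together, while cells sense the chain through receptors such as CD44 and hyaluronidases cut it. In the embryonic mouse heart this matrix fills the cardiac jelly, and loss of Has2, Vcan or Hapln1 disturbs the formation of the heart valves and chambers.

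A region is called gained when both d4 libraries and neither d2 library had a peak in it, lost when both d2 libraries and neither d4 library had one, and shared when all 4 had one. Of the 32 regions, 14 were gained, 5 were lost and 7 were shared, and the other 6 had another combination. Over all union regions 9.93% were gained, 13.8% were lost and 28.1% were shared. Over the union regions within 100 kb of a protein-coding start the shares were 8.48%, 13.2% and 31.9%. No test was run between the days, because the peak lists hold no counts for regions without a peak and, with 2 libraries against 2, a permutation test cannot give a p-value below 0.333.

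The DNA under the gained regions is shown first. Within 100 bp of the summit 10 of the 14 carried a GATA word, or 71.4%, against 61.9% of all gained regions. A GATA word here is AGATAA or AGATAG or TGATAA or TGATAG on either strand, the site form that GATA transcription factors are known to bind. The windows below cover 100 bp on each side of the summit of the strongest peak, are given on the + strand of the GRCm38.p6 (mm10) reference, and have GATA words in capitals. The reference is C57BL/6J and not the strain of these cells. The first 4 windows are gained regions around Hapln1, at chr13:89484407-89484607, chr13:89493315-89493515, chr13:89496648-89496848 and chr13:89547553-89547753. The next 2 are gained regions around Has2, at chr15:56623485-56623685 and chr15:56720682-56720882, and 1 is in the first intron of Cd44, at chr2:102888931-102889131. The last is the lost region of Has2, at chr15:56742785-56742985, which held no GATA word. The windows printed are a selection. Gained windows without a GATA word, at Hapln1, Vcan and Cd44, are not printed, nor is a lost Vcan window that held TGATAA.
Hapln1, 54.9 kb upstream: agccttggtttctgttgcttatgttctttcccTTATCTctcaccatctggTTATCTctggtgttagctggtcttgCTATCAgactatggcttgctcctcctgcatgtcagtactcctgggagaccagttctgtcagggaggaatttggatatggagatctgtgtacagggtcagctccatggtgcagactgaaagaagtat
Hapln1, 46.1 kb upstream: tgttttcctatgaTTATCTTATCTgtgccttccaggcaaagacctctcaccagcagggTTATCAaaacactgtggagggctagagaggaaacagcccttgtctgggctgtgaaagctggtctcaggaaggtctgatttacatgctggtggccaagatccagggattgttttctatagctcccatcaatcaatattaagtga
Hapln1, 42.9 kb upstream: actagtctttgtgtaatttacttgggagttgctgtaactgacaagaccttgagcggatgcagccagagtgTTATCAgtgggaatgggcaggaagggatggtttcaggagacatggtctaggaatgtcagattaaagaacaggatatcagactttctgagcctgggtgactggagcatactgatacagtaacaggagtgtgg
Hapln1, 7.61 kb downstream of the start: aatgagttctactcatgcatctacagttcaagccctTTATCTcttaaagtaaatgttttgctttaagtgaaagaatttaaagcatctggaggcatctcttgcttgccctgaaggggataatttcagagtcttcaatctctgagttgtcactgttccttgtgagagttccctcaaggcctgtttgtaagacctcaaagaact
Has2, 70.7 kb downstream of the start: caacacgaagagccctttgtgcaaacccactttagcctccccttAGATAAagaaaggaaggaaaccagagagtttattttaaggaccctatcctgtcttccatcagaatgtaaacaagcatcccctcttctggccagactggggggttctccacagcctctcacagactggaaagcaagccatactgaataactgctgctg
Has2, 26.1 kb upstream: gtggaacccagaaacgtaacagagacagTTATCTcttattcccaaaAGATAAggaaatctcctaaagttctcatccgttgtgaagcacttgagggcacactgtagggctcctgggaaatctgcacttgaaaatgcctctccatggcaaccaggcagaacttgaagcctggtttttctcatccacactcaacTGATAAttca
Cd44, 12.2 kb downstream of the start: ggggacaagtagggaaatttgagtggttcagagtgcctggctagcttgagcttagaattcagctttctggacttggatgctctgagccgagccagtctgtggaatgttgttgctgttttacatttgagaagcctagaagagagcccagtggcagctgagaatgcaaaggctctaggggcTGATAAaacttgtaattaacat
Has2, lost, 48.2 kb upstream: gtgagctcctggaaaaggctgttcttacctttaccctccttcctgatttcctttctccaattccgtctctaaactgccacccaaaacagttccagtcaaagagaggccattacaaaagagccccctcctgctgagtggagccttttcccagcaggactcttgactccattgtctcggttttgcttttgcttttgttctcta

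The Hapln1 windows 54.9 kb and 46.1 kb upstream held 3 words each, and those 42.9 kb upstream and 7.61 kb downstream held 1 each. The Has2 window 26.1 kb upstream and the window of the gained Vcan region inside the gene also held 3. At least 2 words were present in 4 of the 14 gained regions of the 8 genes, or 28.6%, and in 25.6% of all gained regions. The share of gained regions with a GATA word was 71.4% for the 8 genes and 61.9% for all 4063 gained regions of the genome, so the members lay near the genome-wide share. It was 15.2% for all lost, 9.81% for all shared and 23.1% for all union regions. Within 50 bp of the summit the word was present in 5 of the 14 gained regions of the 8 genes, or 35.7%, and in 43.2% of all gained regions. Of the 5 lost regions of the 8 genes 1 held a GATA word, and of the 7 shared regions 1 did. A match of these letters is not evidence that a factor was bound.

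Other words were less frequent in the gained regions of the 8 genes. An E-box word (CAGCTG or CAGATG or CATCTG), the site form of basic helix-loop-helix factors, was found in 5 of 14 windows, against 37.8% of all gained regions. A TEAD word (GGAATG) was found in 4, against 23.2%, and an ETS word (CCGGAAG or CAGGAAG) in 2, against 20.7%. The ETS words were both at Hapln1. An AP-1 word (TGANTCA, where N is any base) was found in 1 window, against 11.4% of all gained regions. A forkhead word (TGTTTAC or TGTTTGC) was found in 2, against 11.3%. An octamer word (ATGCAAA) was found in 2, both at Cd44, against 2.95%. These counts are small. Words of different families were searched separately on both strands and may share bases.

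Hapln1 encodes the link protein that ties hyaluronan to versican. It had 6 regions within 100 kb, of which 5 were gained, 1 was shared and none was lost. Both d4 libraries had a peak in all 6, and each d2 library had a peak in 1. The single region that was open on both days was the promoter, at chr13:89539200-89539887. Fold enrichment at the summit is the pileup of fragments or reads plus 1, over the local background plus 1. Because of the added 1, shallower libraries get lower values at the same openness, and the d2 libraries were shallower. At the promoter the fold enrichment was 9.03 and 10.7 in the d4 libraries, against 8.26 and 8.55 in the d2 libraries. The promoter was therefore called at d2 as well, and by the peak calls the days differed only in the regions around it. By fold enrichment the promoter itself was higher in both d4 libraries than in both d2 libraries. The d4 summits lay 317 bp apart and the d2 summits 0 bp apart, so the values need not come from the same place. Other measures of the strength of the promoter are given below.

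Of the gained Hapln1 regions 3 lay upstream, in intergenic DNA. The region 46.1 kb upstream (chr13:89493247-89493659) had fold enrichments of 9.19 and 10.6 in d4 replicates 1 and 2, with pileups (overlapping fragments or extended reads at the summit) of 24 and 25, and no d2 peak. The region 54.9 kb upstream (chr13:89484475-89484897) had 6.44 and 8.45, with pileups of 11 and 15, and no d2 peak. The region 42.9 kb upstream (chr13:89496685-89496858) had 5.63 and 5.82, with pileups of 14 and 13, and no d2 peak. The first of these was among the stronger gained regions, as its lower fold enrichment ranked in the top 15.5% of the 4063, while the others ranked in the top 61.3% and 82.5%. In the window 54.9 kb upstream 64.2% of the bases are masked as repeats in the reference, which was over 50% in 1.35% of all gained regions.

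The other gained Hapln1 regions lay within the gene. The region in intron 1 of 4, 7.61 kb downstream of the start (chr13:89547408-89547872), had fold enrichments of 10.5 and 9.24 in d4 replicates 1 and 2, with pileups of 28 and 20, and no d2 peak. A narrow region of 157 bp in the 5' UTR part of exon 1 of 5 (chr13:89540419-89540575), 623 bp downstream of the start, had 5.25 and 5.90, with pileups of 17 and 17, and no d2 peak. This exon region was the weakest gained region of the 8 genes by fold enrichment and held none of the words searched. It lay close to the promoter region that both days shared.

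The 100 kb limit decides how many gained regions Hapln1 is given. The regions next beyond it lay 138 kb upstream (chr13:89401233-89401621), with fold enrichments of 10.5 and 11.1 in d4 replicates 1 and 2, and 204 kb upstream (chr13:89336018-89336206), with 6.27 and 7.30. Both were gained. With no distance limit Hapln1 was thus the nearest gene of 8 regions, of which 7 were gained. Just inside the limit, the farthest region of the 8 genes was a lost region of Vcan at 86.1 kb.

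**Figure D1:**
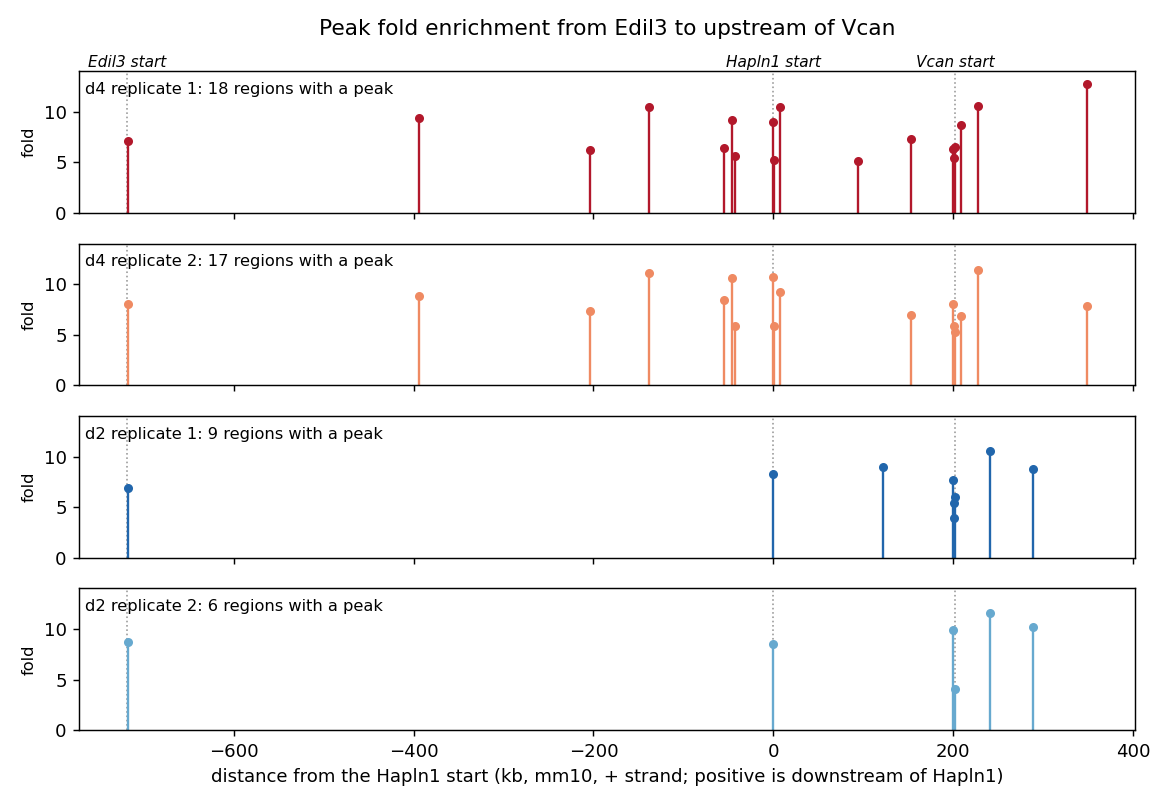
Fold enrichment of each peak (vertical axis, no unit) against the distance of its region from the Hapln1 start (kb), with 1 panel per library and both d4 libraries above both d2 libraries. Dotted lines mark the starts of Edil3, Hapln1 and Vcan. Of the 22 regions drawn, d4 replicates 1 and 2 had a peak in 18 and 17, and d2 replicates 1 and 2 in 9 and 6.

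Hapln1 lies between Edil3, whose start is 718 kb upstream of that of Hapln1, and Vcan, whose start is 203 kb downstream. In the stretch from Edil3 to the last region upstream of Vcan, 12 of 22 regions were gained, 2 were lost and 4 were shared, as drawn in the plot of fold enrichment along the locus. Both Hapln1 regions within the gene had 9 other gained regions within 250 kb, and 2 of all 4063 gained regions had that many, which was the highest number. The 3 upstream Hapln1 regions had 7 each, reached by 28 of 4063. The median over all gained regions was 1. These neighbour counts use the same calls that chose the gene and are given only to describe the place.

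Vcan encodes versican, the large proteoglycan that binds hyaluronan. It had 11 regions, more than any other of the 8 genes, of which 3 were gained, 2 were lost and 2 were shared. The gained region 24.8 kb upstream (chr13:89767333-89767797) had fold enrichments of 10.6 and 11.4 in d4 replicates 1 and 2, with pileups of 19 and 20, and no d2 peak. Its lower fold enrichment was in the top 7.11% of all gained regions, the highest rank among the 14, and 51.2% of its window is masked as repeats. The gained region 5.45 kb upstream (chr13:89747957-89748485) had 8.65 and 6.83, with pileups of 21 and 16. Both lie in the intron of Gm4117, an antisense gene that starts within Vcan.

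The third gained Vcan region lay inside the gene (chr13:89692649-89692891), with fold enrichments of 7.31 and 7.0 in d4 replicates 1 and 2 and pileups of 13 and 12. It overlaps exon 8 of 15 in one transcript and exon 7 of 14 in another, and falls in an intron of shorter forms that skip this exon. The lost regions were the farther ones upstream. The region 37.8 kb upstream (chr13:89780325-89780624) had no d4 peak and fold enrichments of 10.5 and 11.5 in d2 replicates 1 and 2, with pileups of 21 and 22. The region 86.1 kb upstream (chr13:89828588-89828859) had no d4 peak and fold enrichments of 8.76 and 10.2 at d2, with pileups of 13 and 15. Both lost regions also lie in an intron of a long transcript of the neighbouring gene Xrcc4. Without d2 replicate 2, Vcan had 4 lost regions. Upstream of Vcan there were thus gained and lost regions on the same side of the gene, whereas Hapln1 had no lost region.

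At the main Vcan start a region was open on both days, while a region over another Vcan start (chr13:89740301-89740591) had no peak in d2 replicate 2. The shared region over the main start (chr13:89742213-89742772) had fold enrichments of 6.50 and 5.32 in the d4 libraries, against 6.02 and 4.11 in the d2 libraries. The shared region in intron 1 (chr13:89739372-89739697), which covers a start of Gm4117, had 6.31 and 8.01 at d4, against 7.73 and 9.88 at d2. The remaining 4 regions of Vcan had a peak in 1 d4 library, in 1 d2 library (2 regions), or in both d4 libraries and 1 d2 library, with fold enrichments of 3.93 to 8.93. The number of Vcan regions with a peak was 7 and 6 in d4 replicates 1 and 2 and 7 and 4 in d2 replicates 1 and 2, so that the groups overlapped.

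Has2 encodes the main hyaluronan synthase of the embryonic heart. It had 7 regions, of which 3 were gained, 1 was lost and 2 were shared. The gained region 26.1 kb upstream (chr15:56720633-56720827) had fold enrichments of 8.40 and 7.63 in d4 replicates 1 and 2, with pileups of 15 and 13, and no d2 peak. The gained region in intron 1 of 3 (chr15:56685359-56686008), 8.53 kb from the start, had 7.03 and 7.74, with pileups of 16 and 17. In d4 replicate 1 it was made of 2 peaks, and the highest summits of the d4 libraries lay 495 bp apart, against a median of 35 bp over the 14 gained regions. The gained region 70.7 kb downstream of the start (chr15:56623464-56623796) had 7.21 and 7.51, with pileups of 23 and 22.

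The lost Has2 region lay 48.2 kb upstream (chr15:56742773-56743103), with no d4 peak and fold enrichments of 9.19 and 10.8 in d2 replicates 1 and 2, with pileups of 19 and 20. It and the gained region 26.1 kb upstream are in introns of Has2os, the antisense gene whose transcripts overlap Has2. When genes of any type could be the nearest gene, Has2 kept 1 gained and no lost region, because regions went to Has2os. Without d2 replicate 1, or without d4 replicate 2, it had 2 lost regions. Next to the Has2 start, 160 bp upstream, only d2 replicate 2 had a peak, with a fold enrichment of 6.71 and a pileup of 20. The nearest shared region lay 1.15 kb downstream, in intron 1 (chr15:56692273-56693394), with 9.09 and 6.49 in the d4 libraries, against 7.72 and 6.36 in the d2 libraries.

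Has3, another hyaluronan synthase, had only lost regions, both called lost at the authors' threshold. At a −log10 q of at least 10 neither was called lost, and among the top 15000 peaks of each library 1 was. The region over the start (chr8:106870792-106871260) had no d4 peak and fold enrichments of 6.73 and 8.80 in d2 replicates 1 and 2, with pileups of 18 and 27. The region 952 bp downstream, in intron 1 of 3 (chr8:106871843-106872228), had no d4 peak and 6.94 and 6.36 at d2, with pileups of 19 and 19. These were GC-rich promoter sequences, with a GC content of 71.6% and 67.2% in the summit windows, against a median of 64.2% over all lost promoter regions. The windows held 21 and 10 CpG, against a median of 12 over all lost promoter regions. At the authors' threshold Has2 thus had more gained than lost regions and Has3 lost regions alone. Promoter regions, those within 1000 bp of a transcript start of any gene type, were lost in 9.87% of cases genome-wide and gained in 2.74%.

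**Figure D2:**
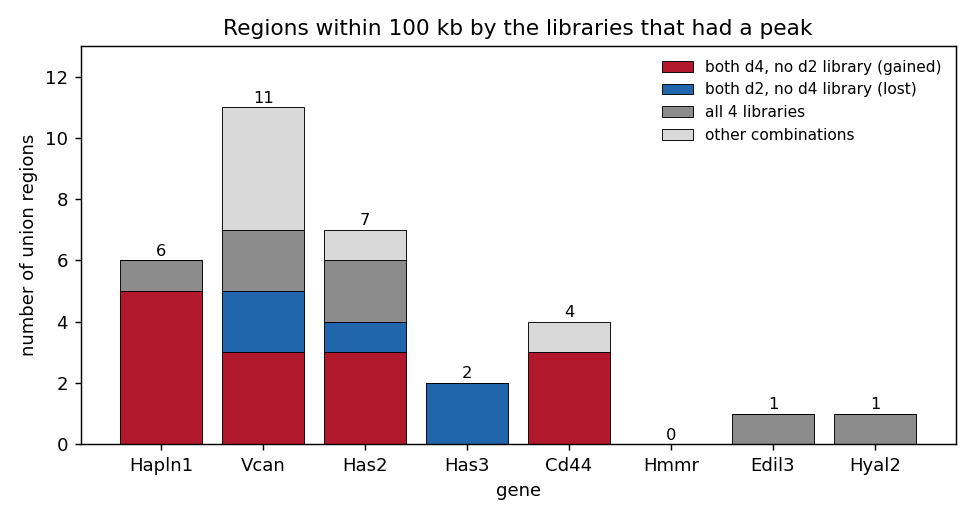
Number of union regions within 100 kb of each of the 8 genes (vertical axis), divided by the libraries that had a peak. Hapln1 had 5 gained of 6 regions, Cd44 had 3 gained of 4, both Has3 regions were lost, and Vcan and Has2 had gained and lost regions.

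Cd44 encodes the principal cell surface receptor for hyaluronan. It had 4 regions, none of which had a peak in either d2 library, whereas d4 replicates 1 and 2 had a peak in 4 and 3 of them. Of these 3 were gained, and the gene was chosen for them. The region over the start (chr2:102901452-102901777) covers the 5' UTR part of exon 1 and had fold enrichments of 9.12 and 7.81 in d4 replicates 1 and 2, with pileups of 19 and 18, and no d2 peak. It was a promoter region, and besides the narrow Hapln1 region in exon 1 it was the only promoter among the 14 gained regions.

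The other Cd44 regions were distal. The region in intron 1, 12.2 kb from the start (chr2:102888805-102889151), had fold enrichments of 9.34 and 7.78 in d4 replicates 1 and 2, with pileups of 18 and 15. The region 42.5 kb upstream (chr2:102944127-102944344) had 7.87 and 7.32, with pileups of 17 and 14. A further region in intron 1, 18.3 kb from the start (chr2:102882769-102883007), had a peak in d4 replicate 1 alone, with a fold enrichment of 8.15 and a pileup of 16. The lower fold enrichments of the 3 gained regions ranked in the top 33.9% to 42.9% of all gained regions. Cd44 thus differed from Hapln1 at the start itself, where the Hapln1 promoter was called on both days and the Cd44 promoter only at d4.

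Hmmr, which encodes another hyaluronan receptor that also acts at the mitotic spindle, had no region by the rule. Its start is covered by a region shared by all 4 libraries (chr11:40733349-40734125), which also covers the start of the neighbouring gene Nudcd2 and was assigned to it. The fold enrichment there was 15.7 and 15.1 in the d4 libraries, against 11.9 and 15.1 in the d2 libraries. Hyal2, a hyaluronidase anchored at the cell surface, had 1 region, over its promoter (chr9:107568426-107569368), with 7.56 and 9.10 at d4, against 6.75 and 7.35 at d2. By pileup over local background, without the added 1, the days overlapped at Hyal2, at 10.1 and 13.2 against 9.68 and 11.0. Edil3, a secreted integrin ligand next to Hapln1 that is expressed by embryonic endothelial cells, had 1 region at its start (chr13:88821467-88822168), with 7.08 and 8.03 at d4, against 6.86 and 8.68 at d2. All 3 of these promoters were open on both days.

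**Figure D3:**
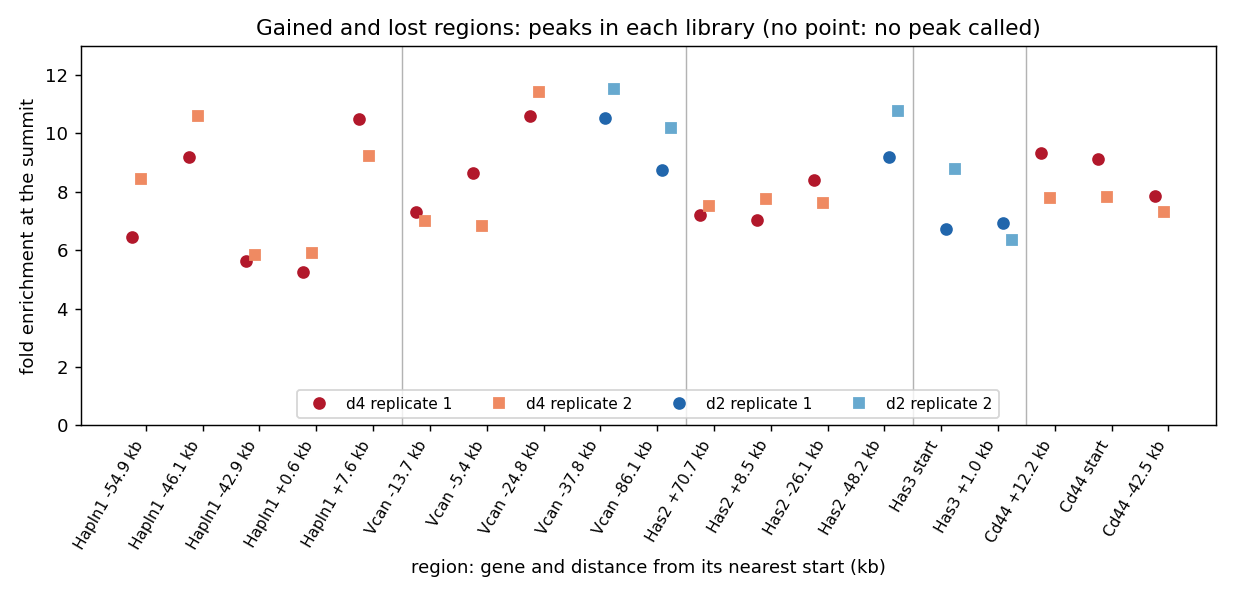
Fold enrichment at the summit (vertical axis) of the 14 gained and 5 lost regions, by library, with d4 points to the left of d2 points and no point where no peak was called. Regions are named by gene and distance from the nearest protein-coding start. Gained values lie between 5.25 and 11.4, and lost values between 6.36 and 11.5.

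Across the 8 genes, fold enrichments of gained regions were 5.25 to 11.4 in the d4 libraries and those of lost regions 6.36 to 11.5 in the d2 libraries, as the plot of gained and lost regions shows. The gained regions were mostly distal. Of the 18 distal regions of the 8 genes 12 were gained and 3 were lost, and of the 14 promoter regions, which include regions near starts of antisense and other noncoding genes, 2 were gained, 2 were lost and 6 were shared. Genome-wide, 15.7% of distal regions were gained, 17% were lost and 7.17% were shared, and 54.3% of promoter regions were shared. The median GC content of the summit windows was 47.5% in the gained regions of the 8 genes, against 51.2% in all gained regions.

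A missing peak does not give a level. Relative to d4 replicate 1, the genome-wide background coverage was 0.985 in d4 replicate 2, against 0.752 and 0.640 in the d2 libraries, which were thus shallower. If the gained regions had been as open at d2 as at d4, their pileups scaled to the d2 depths would have been 8.06 to 18.6, above 6, the smallest pileup called in either d2 library, in 14 of 14 regions. The smallest pileup that can pass depends on the local background too, so regions near this limit may have been missed at the d2 depth. The lost regions lie the other way, with pileups of 20.1 to 33.1 when scaled to the d4 depths, where the smallest pileup called was 7.

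In the 7 shared regions the strength of the peak can be compared between days, a measure that the choice of genes did not use. It was taken as the mean over the d4 libraries of pileup over local background, divided by the same mean at d2, on a log2 scale. Over all 11494 shared regions the median was -0.20, and changes are read against it. The Hapln1 promoter stood at -0.09, the Edil3 promoter at -0.19, the Hyal2 promoter at 0.17 and the region over the Vcan start at 0.15. The Has2 region in intron 1 stood at 0.08, and the Vcan region in intron 1 at -0.41. Each library was read at its own highest summit. Summits of the same day lay 317 bp apart at the Hapln1 promoter (d4) and 279 bp at the Vcan start (d2). At the Hyal2 promoter they lay 177 bp apart at d4 and 308 bp at d2.

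The lowest value was -0.72, for the shared Has2 region 66.7 kb downstream of the start (chr15:56627388-56627847). Its pileup over local background was 15.9 and 13.6 in the d4 libraries, against 21.2 and 27.4 in the d2 libraries, so the days did not overlap on this measure. The pileup itself was 34 and 29 at d4, against 17 and 21 at d2, and the local background was 2.13 and 2.14 at d4, against 0.802 and 0.766 at d2. Over the genome-wide background of each library the pileup was 45.0 and 39.0 at d4, against 29.9 and 43.5 at d2, which overlapped. The lower value at d4 thus came with a higher local background and not with a lower pileup. By the deposited fold enrichment, which adds 1 to pileup and background, the same region had 11.2 and 9.57 at d4, against 9.99 and 12.5 at d2, which did overlap, and its log2 value was -0.11. The median over the 7 regions was -0.09 by pileup over background. By the deposited fold enrichment it was 0.15, against -0.10 for all shared regions.

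The measure also mattered at the Hapln1 promoter. Its pileup over the genome-wide background was 39.7 and 43.0 at d4, against 33.4 and 33.1 at d2, a log2 value of 0.31, whereas the median of all shared regions on this measure was -0.48. Over the local background the value was -0.09, and the d4 and d2 libraries overlapped, at 12.3 and 15.4 against 13.4 and 16.2. The median over the 7 regions was -0.07 with the genome-wide background, which was an alternative chosen after seeing the data.

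**Figure D4:**
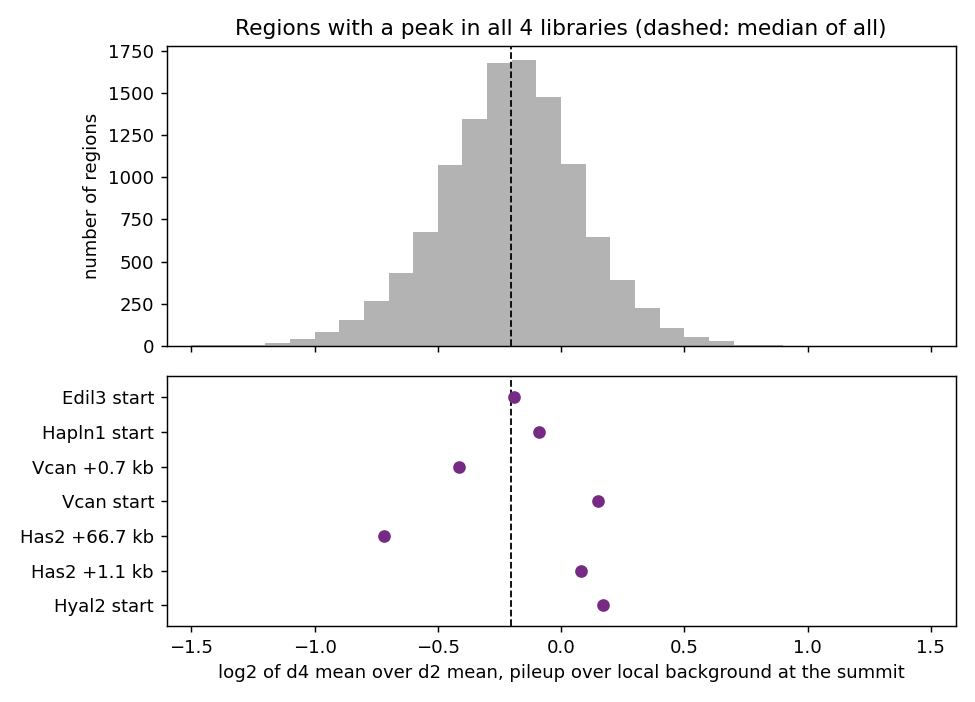
Upper panel: number of regions with a peak in all 4 libraries by the log2 ratio of d4 over d2 in pileup over local background at the summit. Lower panel: the 7 such regions of the 8 genes, with the median of all 11494 regions, -0.20, as a dashed line. They range from -0.72 at the Has2 region 66.7 kb downstream to 0.17 at the Hyal2 promoter.

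Among the 15068 protein-coding genes with a region, 12 had at least 5 gained regions and 9 of those had no lost one, among them Hapln1. The genes most like Hapln1 by the number of regions with a peak in each of the 4 libraries (Euclidean distance over the 4 counts) were Farp1, at a distance of 0, with 5 gained of 6 regions, and, among those at a distance of 1, Man1a and Sowahb. At a distance of 1.41 there were 6 tied genes, of which Col4a1, Itpr1, Polr1a and Rarb were first by name. Man1a and Sowahb had 4 gained regions each, and neither they nor Farp1 had a lost one. At least 3 gained regions, as at Vcan, Has2 and Cd44, were found for 134 genes, or 0.889%, and at least 2 lost and no gained region, as at Has3, for 513 genes, or 3.40%.

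A wider list of 36 further genes was also chosen with earlier results known. It was mostly of hyaluronan biology but included integrin subunits and Mfge8. The list had 68 regions at 27 genes, of which 3 were gained (4.41%), 12 were lost (17.6%) and 17 were shared (25%). The background within 100 kb of a protein-coding start was 8.48% gained and 13.2% lost. The gained regions were at Itih5, a member of the inter-alpha-trypsin inhibitor heavy chain family whose relatives are bound covalently to hyaluronan, with fold enrichments of 10.6 and 7.47 in d4 replicates 1 and 2, at Stab2, a scavenger receptor for hyaluronan, with 8.90 and 11.1, and at Cemip2, a cell surface protein linked to hyaluronan breakdown, with 8.12 and 8.25. Stab2 and Cemip2 each had a lost region as well.

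Lost regions alone were found at 9 genes of that list. Has1, the remaining hyaluronan synthase, had a lost region 4.57 kb downstream of its start, with no d4 peak and fold enrichments of 6.83 and 7.78 in d2 replicates 1 and 2. The proteoglycan genes Acan and Bcan had 1 and 2 lost regions, and the link protein gene Hapln2, which lies near Bcan, had 1. Lost regions were also found at Cemip, which encodes a hyaluronan-binding protein needed for hyaluronan breakdown, at Adamts5, Adamts9 and Adamts20, which encode proteases of the family that cleaves versican and aggrecan, and at Itgb5, an integrin subunit that pairs with integrin alpha V. Fold enrichments of the 12 lost regions at d2 were 4.51 to 13.9. The wider list had more lost than gained regions, which was also the order of the background, at 13.2% lost and 8.48% gained. The 8 genes had the other order, but Hapln1 and Cd44 among them had been chosen for gained regions.

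The markers of cell types were read by the same calls. Mesoderm markers (T, Mesp1, Pdgfra and Gata4) had 3 gained (18.8%) and no lost regions of 16, and endothelial markers had 2 gained (6.90%) and no lost regions of 29, at Kdr and Flt1, while Tie1 had no region. Pluripotency markers had 1 gained region, at Nanog, and 3 lost (15.8%) of 19, at Pou5f1, Esrrb and Zfp42. Neural markers had 1 gained and 5 lost (27.8%) of 18, and endoderm markers 3 gained (13.6%) and 6 lost (27.3%) of 22. Beside the background of 8.48% gained and 13.2% lost, the endothelial gained share and the pluripotency lost share lay near it, and these lists hold few regions. In such bulk libraries a larger share of cells with an open region and a more open region in each cell cannot be told apart, and the part of changing cell types in the regions of the 8 genes was not tested.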

How the data were processed

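The study used cutadapt for trimming and Bowtie2 for alignment to mm10. Mitochondrial reads, duplicates and reads with several positions were discarded, and MACS2 was run per library before blacklist filtering. No control is named in the methods. The study's methods name both paired-end mode and a shift and extension, so pileups count fragments or extended reads. The deposited peak lists hold the authors' fold enrichment at the summit as a ratio, their −log10 p and −log10 q values, and a score and a summit offset. Read totals were not used here. Pileup and local background were solved from the deposited fold and −log10 p, which gave whole pileups (to within 0.01) for 100% of peaks. Libraries held 22511 and 21299 peaks at d4 and 26865 and 24544 at d2.

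Peaks overlapping by at least 1 bp were merged. For assignment, starts were those of 58797 protein-coding transcripts, and for promoters those of all transcripts, while coordinates are 1-based. Code was run in Python 3.11.15 with pandas 2.3.3 and scipy 1.17.1 and tested on simulated peaks. No test was run between days. Named genes were the 8 members, with gained and lost regions in full, genes of the wider list with a gained or lost region, and the genes nearest to Hapln1 by counts of regions, at most 8, of which 1 is not reported here. Members, lists and motif words were chosen with earlier results of these data known. Alternatives were other thresholds, overlaps, distance limits, gene types and summit windows, and leaving out each library.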

Additional observations from a re-analysis of the deposited data

How the results depend on the processing

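At a −log10 q of at least 10 the 8 genes had 7 gained and 3 lost regions, and Hapln1 and Cd44 had 2 gained each. Over all union regions 8.59% were then gained and 12.5% lost. Among the top 15000 peaks of each library Hapln1 also had 2 gained, and over all union regions 11.1% were gained and 10.15% lost. When genes of any type could be the nearest gene, Cd44 had 2 gained regions. Leaving out each library in turn gave 14 to 17 gained and 5 to 7 lost regions of the 8 genes, and 5 gained at Hapln1 each time. A region gained or lost with all 4 libraries keeps that class when 1 is left out. These counts were thus not free to fall, and their stability is no support. Fewer libraries loosen the calls everywhere, and the shares over all union regions were then 12.1% to 19.6% gained and 17.3% to 30.0% lost. In the shared regions, the median of the 8 genes exceeded that of all shared regions by 0.11 on the log2 scale. The standard deviation of this excess over the pairs of a d4 with a d2 library was 0.14, larger than the excess. Without single libraries the excess was -0.04 to 0.13, the lowest value, -0.044, coming without d4 replicate 2. With the genome-wide in place of the local background, chosen after seeing the data, it was 0.41. Under the other alternatives tried, including starts of all transcripts of protein-coding genes, which was chosen after seeing the data, the gained and lost counts of the 8 genes and the gained count at Hapln1 stayed within 1.5 times. Both Has3 regions stopped being called lost at a −log10 q of at least 10, leaving 0, and Has2 then had 1 gained region. No paired analysis was possible because the results are counts and ratios that come from no test. Low pileups limit the weakest calls.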

Other observations

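Beyond the 100 kb limit, further gained regions lay in the same locus. A gained region 147 kb upstream of Vcan (chr13:89889100-89889378) had fold enrichments of 12.7 and 7.81 in d4 replicates 1 and 2 and no d2 peak. Another, inside the Edil3 gene and 324 kb downstream of its start (chr13:89146047-89146381), had 9.40 and 8.86. With no distance limit the 8 genes had 20 gained and 5 lost regions, of which 3 gained ones were nearest to Edil3, although its promoter was open on both days.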
